A study of Mus musculus with 15 samples.

Results

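Passage 15 was compared with passage 5 in untreated large colonies of cCFU-F, the colony-forming unit fibroblasts of the mouse heart, in 6 of the 15 arrays of the series. The 6 arrays were chosen by title, 3 per passage, and 19938 genes were tested in them. Per the labels the cells came from the hearts of male C57BL/6 mice aged 12 weeks and were sorted as SCA1+PDGFRα+CD31- before culture. Both groups were labelled large colony and untreated, so passage number was the only labelled difference. The other arrays described here are 3 at passage 5 and 3 at passage 15 from small colonies, all of them given PDGF-AB at 50 ng/ml. They show where the change in large colonies differed, but colony size and PDGF-AB cannot be told apart in them. The fit used all 15 arrays for a common estimate of the spread. These also include 3 arrays of untreated small colonies at passage 5. It is not labelled if replicates were independent cultures or mice, if a large colony line was 1 clone, or if the passage 15 cells descended from those hybridised at passage 5. P-values here thus cover only the scatter within the groups of the 15 arrays, and that scatter may be technical.

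cCFU-F are cardiac stromal cells that attach, form colonies from single cells and can be passaged for a long time. Such cells make collagen-rich matrix, secrete growth factors and cytokines, and take part in the repair of the heart wall. Stromal lines kept in long culture are known to drift in matrix, secretory and stress programmes as well as in the cell cycle.

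Levels are log2 intensities, given for replicates 1, 2 and 3 of a passage in that order, or as mean ± SD (n = 3). Changes are log2 differences, passage 15 minus passage 5, with the SE of the limma fit. Adjusted p-values are from limma over all 19938 genes, and a gene is called at an adjusted p under 0.05. Folds are ratios of intensities. The lower quartile of genes lay between 4.38 and 4.50 in the 6 arrays, and no fold is given where a group mean was at or below this. Levels of different genes are not set against each other, since probe sets differ in brightness.

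Array medians were between 5.59 and 5.64. Pearson's r across genes, which are not independent replicates, was 0.997 to 0.998 within a passage and 0.979 to 0.981 between passages. Xist, the RNA of the inactive X chromosome, lay between 8.93 and 9.91 in all 6 arrays, although the labels gave male animals. Of 7 Y-linked genes, 6 lay between 1.93 and 3.42 and Sry between 6.11 and 6.56, and none was called. Most stromal markers were present at both passages, and some of them changed. Pdgfra, which encodes the receptor of the sort, read 6.62, 6.45 and 6.67 at passage 5 and 8.76, 9.02 and 8.76 at passage 15 (adjusted p = 1.7e-12). Cd34, of the list of stromal and progenitor surface markers, rose by 3.44, from a mean of 5.04 to 8.48. Col1a1 rose by 1.43 and Col3a1 by 0.67. Pdgfrb had means of 11.83 ± 0.030 and 11.56 ± 0.041, Thy1 10.33 ± 0.050 and 10.63 ± 0.083, and Dcn 12.45 ± 0.056 and 12.26 ± 0.051. Fap, a marker of activated fibroblasts, was low at both (3.33 ± 0.097 and 3.11 ± 0.10), and Ly6a, which encodes SCA1, was not analysed here.

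limma called 7196 genes (36.1%) changed between the passages, with 3477 (17.4%) higher and 3719 (18.7%) lower at passage 15. The arrays of the 2 passages did not overlap for 8875 genes (44.5%), with 20.2% higher and 24.3% lower. With arrays centred on their medians the split was 3068 higher of 8079 called, 38.0% in place of 48.3%. The median change over all genes was -0.042. Genes with a mean level at or above that of the median gene, here termed bright, were called more often. A fit of bright genes alone called 3164 higher and 3091 lower, shares above 17.4% and 18.7%. For lists made up mostly of bright genes, 17.4% and 18.7% are thus low bases.

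Cell cycle genes made up part of the large rises and 0 of the large falls. The 4 lists of cell cycle genes (mitosis, DNA replication, homologous recombination and DNA repair, and replication histones) held 296 tested genes. Of the 516 genes called and at least 2-fold higher (2.59% of all genes), 210 were in these lists, or 40.7%. Among the 160 called and at least 4-fold higher, 105 were in them (65.6%). The 235 genes called and at least 2-fold lower (1.18%) included 0 members of these lists. Outside these 4 lists, 306 genes were thus called at least 2-fold higher and 235 at least 2-fold lower. The 306 can still hold genes linked to division, such as Fignl1.

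**Figure D1:**
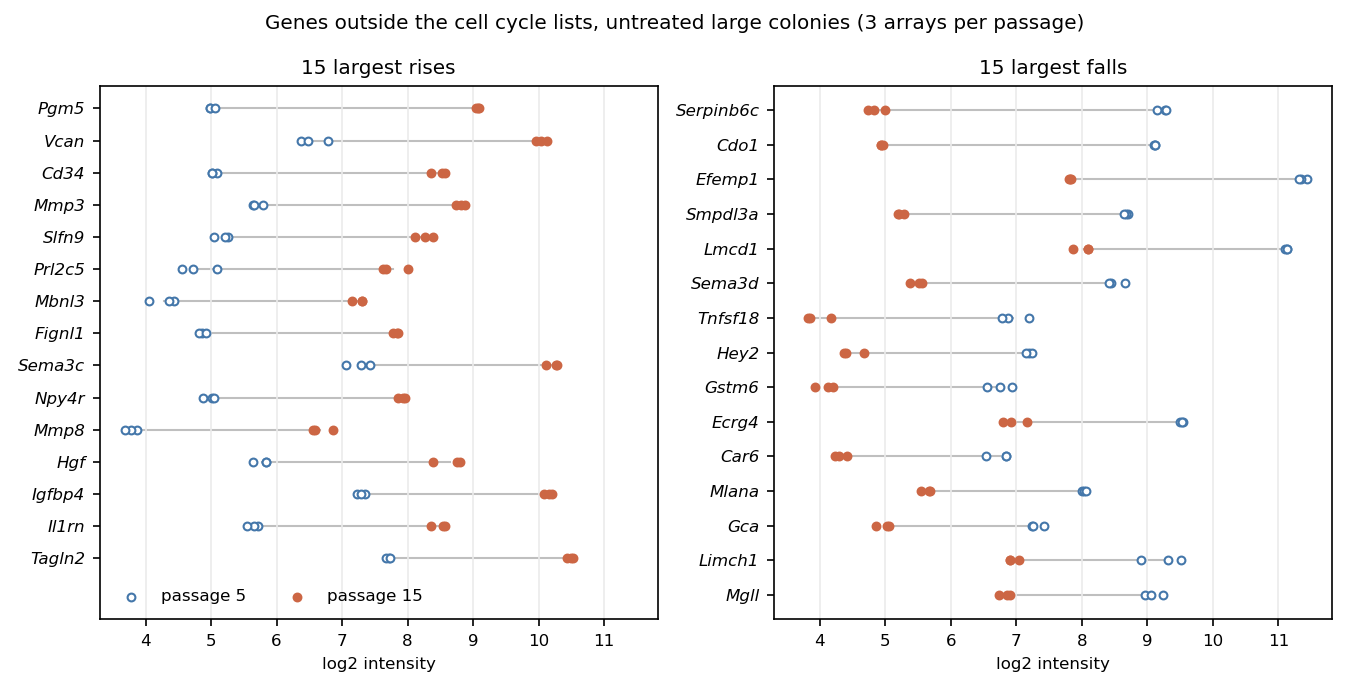
Log2 intensity (horizontal axis) in each of the 3 arrays at passage 5 (open circles) and passage 15 (filled circles), for the 15 largest rises and 15 largest falls outside the cell cycle lists; grey lines join the means. Pgm5 rises from 5.01 to 9.07 and Serpinb6c falls from 9.23 to 4.85; genes were chosen so that the groups do not overlap.

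The largest single rises outside these lists included genes of matrix, secreted signals and RNA processing. Vcan encodes versican, a large proteoglycan of loose matrix. It read 6.79, 6.37 and 6.47 at passage 5 and 10.03, 9.96 and 10.13 at passage 15, a 11.3-fold rise (adjusted p = 1.9e-14). Sema3c, a secreted semaphorin that guides axons and neural crest cells, read 7.43, 7.07 and 7.30 and then 10.27, 10.12 and 10.28, a 7.77-fold rise. All 3 arrays at passage 15 were far above those at passage 5 in both. Il1rn, the antagonist of the interleukin 1 receptor, went from 5.64 ± 0.088 to 8.49 ± 0.11 (7.21-fold). Tagln2, an actin-binding protein related to transgelin, went from 7.70 ± 0.032 to 10.48 ± 0.050 (6.88-fold). Slfn9, a member of the schlafen family, rose by 3.08 and Prl2c5, a prolactin-related hormone gene with near copies that can share probe signal, by 2.98. Fignl1, which acts in homologous recombination but was in none of the 4 lists, rose by 2.96, and Npy4r, a receptor for pancreatic polypeptide, by 2.94. Mbnl3, a splicing regulator of the muscleblind family, went from 4.29 ± 0.20, near background, to 7.25 ± 0.085.

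The largest falls included secreted proteins, metabolic enzymes and regulators of the cytoskeleton. Ecrg4, which encodes a secreted peptide precursor, read 9.55, 9.49 and 9.53 at passage 5 and 6.91, 6.79 and 7.17 at passage 15, a 5.91-fold fall (adjusted p = 2.7e-13). Mgll, the lipase that splits monoacylglycerols and the endocannabinoid 2-AG, went from 9.08 ± 0.14 to 6.83 ± 0.086 (4.76-fold lower). Limch1, an activator of non-muscle myosin, read 9.51, 8.90 and 9.31 at passage 5 and 7.04, 6.90 and 6.91 at passage 15. The passage 5 arrays of Limch1 were spread over more than the passage 15 arrays, and the groups still did not overlap. Mlana, known as a melanocyte antigen, fell by 2.40, and the calcium-binding protein gene Gca changed by -2.33. The glutathione transferase Gstm6 (from 6.75 ± 0.19 to 4.08 ± 0.14) and the carbonic anhydrase Car6 (from 6.74 ± 0.18 to 4.31 ± 0.093) ended near background.

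**Figure D2:**
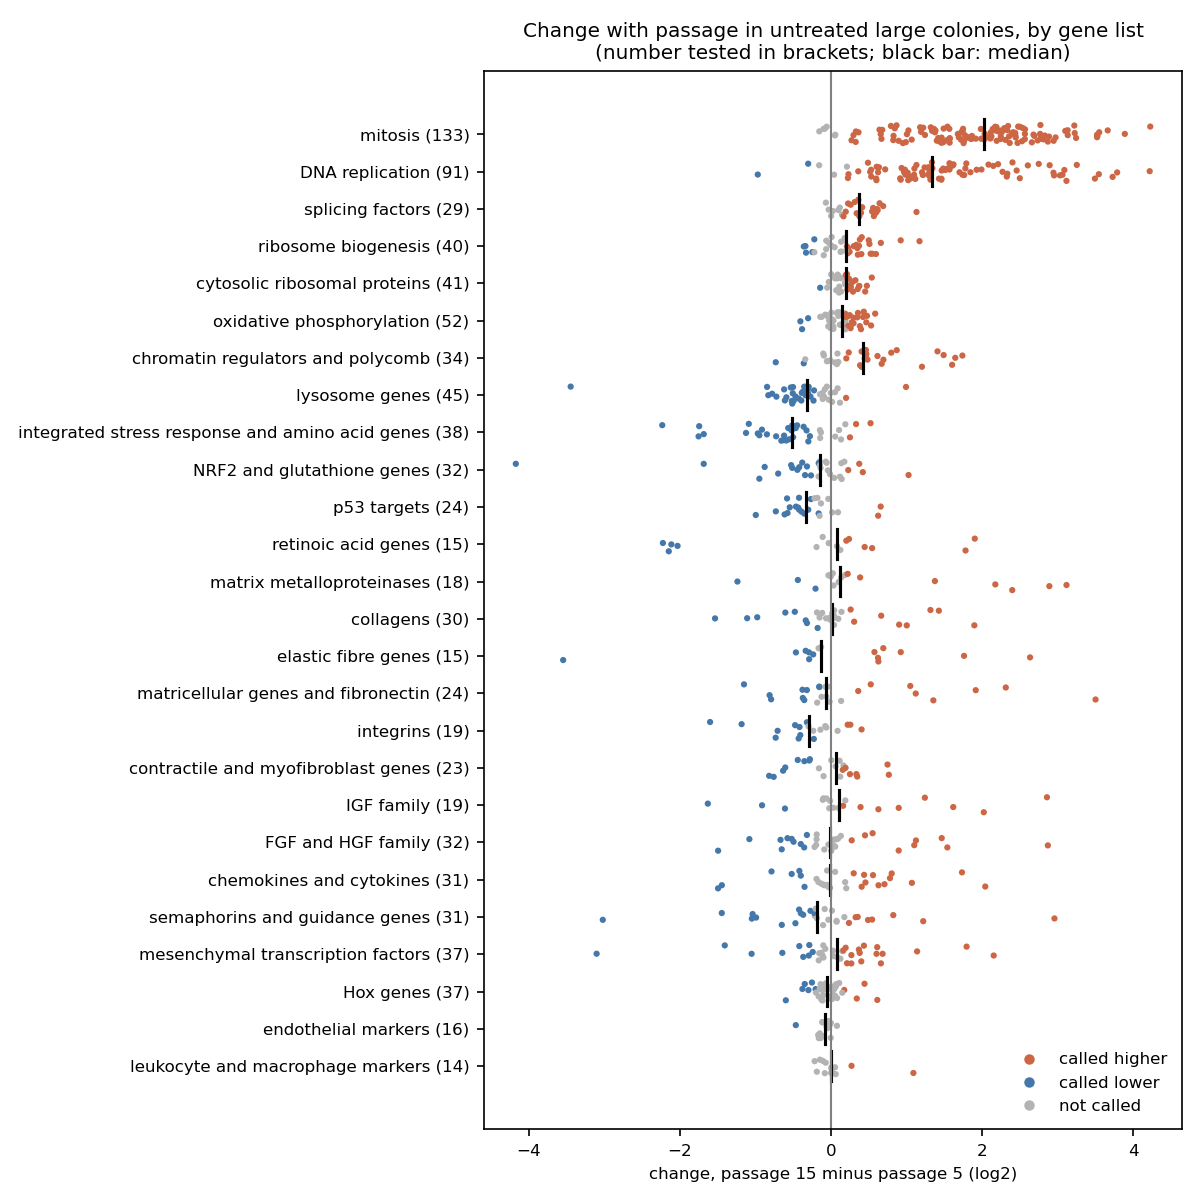
Change from passage 5 to passage 15 in log2 units (horizontal axis) for every tested gene of 26 of the 67 lists; each point is a gene, coloured by its call, and the black bar is the list median. Splicing, ribosome and chromatin genes lie mostly to the right, lysosome and stress response genes mostly to the left, while matrix and growth factor lists spread both ways.

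Genes of the integrated stress response fell together. In this response, kinases that sense amino acid shortage, misfolded protein or other stress slow translation, which favours the synthesis of the transcription factor ATF4. ATF4 and its partners then turn on genes for amino acid transport and synthesis, for charging of transfer RNAs, and, when stress lasts, for cell death. Of 38 listed genes 28 were called lower and 3 higher, with a median change of -0.52 against -0.042 over all genes. The share called lower over all genes, 18.7%, is a low base for this list, since 36 of the 38 were bright. Among them 6 fell at least 2-fold and 0 rose as much.

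The transcription factors of the response came down with their targets. Atf4 itself read 8.16, 8.12 and 8.15 at passage 5 and 7.54, 7.35 and 7.37 at passage 15, a change of -0.72 ± 0.057 (SE, adjusted p = 2.4e-08). Ddit3, which encodes the death-promoting factor CHOP, went from 9.14 ± 0.053 to 7.39 ± 0.088. Nupr1, a small stress-induced chromatin protein, showed the largest fall of the list, from 11.42, 11.35 and 11.31 to 9.15, 9.07 and 9.17 (4.70-fold, adjusted p = 1.6e-14). In each of the 3 genes every passage 15 array was below every passage 5 array. Among the targets, Chac1, the enzyme that breaks down glutathione, went from 9.44 ± 0.062 to 7.75 ± 0.080 (3.21-fold). Vldlr, a lipoprotein receptor, fell by 1.74 ± 0.059, and Ppp1r15a, the phosphatase subunit that ends the translation block, fell by 1.12 ± 0.072. The cystine transporter Slc7a11 read 6.27, 6.25 and 6.29 at passage 5 and 5.55, 5.23 and 5.19 at passage 15 (adjusted p = 8.8e-08).

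The enzymes of serine and glycine synthesis did not all follow; they and the transfer RNA synthetases were picked after their values were seen. Phgdh, the first enzyme of serine synthesis, fell by 0.56 ± 0.069 and Psph, the last, fell by 0.59 ± 0.093. Psat1, the enzyme between them, rose by 0.52 ± 0.062. The mitochondrial glycine enzyme Shmt2 (0.33) and the amino acid transporter Slc38a2 (0.25) were the other called rises. Among transfer RNA synthetases, Nars, Wars, Gars, Sars, Tars and Eprs were all called lower, with changes from -0.66 for Wars to -0.32 for Eprs.

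Promoter windows of these genes are shown because the data bear on a set of genes that moved together. RefSeq windows of 300 bases, from 250 before to 50 after the gene start, were at hand for 15562 tested genes (build GRCm38.p6). They were searched on both strands for the ATF4 element TGATGNAA. It was present in 3.62% of all windows, in 11 of 32 windows of the stress response list (34.4%), and in 10 of the 24 windows of its members called lower (41.7%). The list is made up of known ATF4 targets, so the element is a known feature of it and was not used to choose these genes. The share was 7.98% among the 163 genes called at least 2-fold lower with a window and 1.79% among the 224 called at least 2-fold higher outside the cell cycle lists. The 13 holders among the 163 include Chac1, Trib3, Vldlr and Nupr1 of the stress response list. The 7.98% is thus not separate from the share in that list. A match is a run of letters, not a shown site. The 250 bases before the start of 3 falling genes follow, 5′ to 3′ on the strand of the gene, with the element in capitals on either strand. They lie at chr2:119350992-119351241 (plus strand) for Chac1, at chr7:126625471-126625720 (minus strand) for Nupr1 and at chr3:50443614-50443863 (minus strand) for Slc7a11.
Chac1: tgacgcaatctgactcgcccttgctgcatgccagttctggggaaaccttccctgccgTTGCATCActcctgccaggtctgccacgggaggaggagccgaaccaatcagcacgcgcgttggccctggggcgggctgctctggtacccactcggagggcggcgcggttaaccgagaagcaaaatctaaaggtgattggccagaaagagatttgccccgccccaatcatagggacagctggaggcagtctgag
Nupr1: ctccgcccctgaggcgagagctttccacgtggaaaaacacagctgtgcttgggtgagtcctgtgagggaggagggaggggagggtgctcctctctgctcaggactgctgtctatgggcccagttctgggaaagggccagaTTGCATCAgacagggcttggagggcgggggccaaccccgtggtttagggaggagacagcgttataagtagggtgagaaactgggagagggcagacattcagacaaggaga
Slc7a11: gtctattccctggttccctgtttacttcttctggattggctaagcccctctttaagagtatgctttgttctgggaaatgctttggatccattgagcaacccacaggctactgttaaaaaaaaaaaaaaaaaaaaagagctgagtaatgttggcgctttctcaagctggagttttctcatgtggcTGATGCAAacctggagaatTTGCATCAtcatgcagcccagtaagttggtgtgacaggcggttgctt
The match nearest the start begins 193 bases before it in Chac1, 110 in Nupr1 and 47 in Slc7a11, and Slc7a11 holds 2 matches.

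The same genes went the other way with passage in the treated small colonies, where 24 were called higher and 6 lower (median 0.51). The difference between the changes was called for 35 of the 38, with 32 lower in large colonies, against 34.4% over all genes. Of the 38, 36 had a mean level at or above that of the median gene. A fit of such genes alone called 5205 differences, a share above 34.4%, so 34.4% is a low base for this list. In 21 the changes were called in both and had opposite signs, against 4.70% of all genes. Slc7a11 fell by 0.95 in large colonies and rose by 2.59 in small ones, a difference of -3.54 ± 0.12 (SE, adjusted p = 1.1e-12). Nupr1 fell in both, with changes of -2.23 and -1.16.

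**Figure D3:**
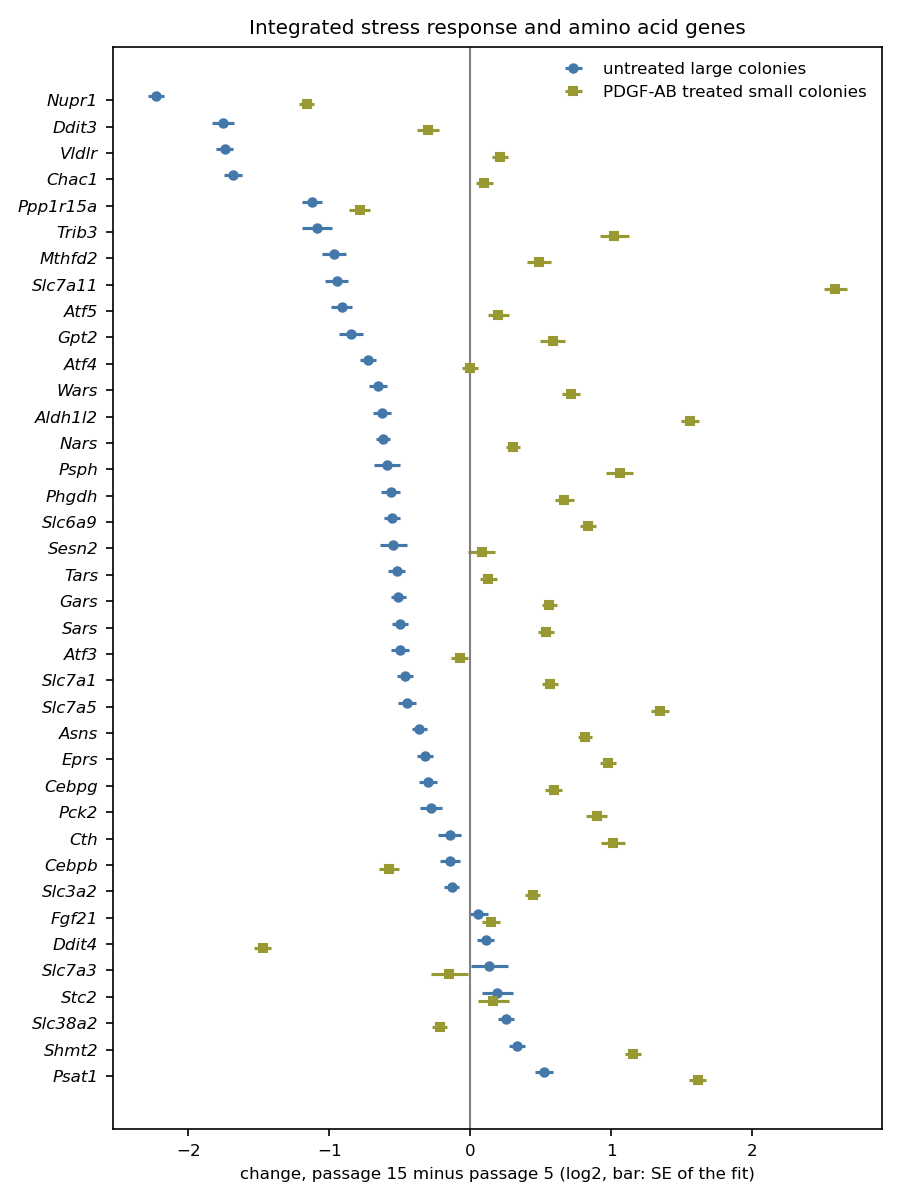
Change from passage 5 to passage 15 (log2, horizontal axis, bars are the SE of the fit) for the 38 tested genes of the integrated stress response list, in untreated large colonies (circles) and in PDGF-AB treated small colonies (squares). Most circles lie below 0 (28 called lower) and most squares above it (24 called higher).

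Enzymes that make retinoic acid fell while genes that take up retinol or return retinal to it rose. Retinoic acid is made from retinol by oxidation to retinal and then to the acid by the ALDH1A enzymes, is broken down by the CYP26 enzymes, and acts through nuclear receptors on growth and differentiation. Of 15 listed genes 6 were called higher and 4 lower (median 0.080), and each of the 4 falls was over 4-fold. These comprised all 3 ALDH1A genes of the list. Aldh1a3 read 11.74, 11.62 and 11.56 at passage 5 and 9.47, 9.31 and 9.48 at passage 15 (4.67-fold lower, adjusted p = 4.1e-12). Aldh1a1 read 10.52, 10.58 and 10.54 and then 8.52, 8.59 and 8.44 (4.08-fold lower, adjusted p = 9.3e-14). Aldh1a2, the main enzyme of the embryonic heart, read 9.21, 9.14 and 9.20 and then 7.45, 6.82 and 6.94 (4.32-fold lower, adjusted p = 1.1e-09). No array of one passage came near those of the other in any of them.

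Breakdown, uptake and reduction genes moved as follows. Cyp26b1, which degrades retinoic acid, fell from 9.85 ± 0.059 to 7.70 ± 0.050 (4.42-fold). Stra6, the receptor that takes up retinol from its carrier, read 6.06, 6.06 and 6.16 at passage 5 and 7.77, 7.91 and 7.95 at passage 15, a 3.44-fold rise. Dhrs3, which reduces retinal to retinol, rose 3.74-fold from 7.68 ± 0.053 to 9.58 ± 0.065. The receptors changed little beside these, with Rara at 0.20 (adjusted p = 0.035) and Rarb at 0.24 (adjusted p = 0.044), both named after their values were seen, and Rarg was not called. Several of these changes differed from those in treated small colonies. Aldh1a3 changed by -0.089 there (adjusted p = 0.44), a difference of -2.13 ± 0.13 (adjusted p = 1.3e-09), and Dhrs3 fell there (-1.06, difference 2.97, adjusted p = 4.8e-12). Aldh1a1 fell by 1.87 there too, and its difference of -0.16 ± 0.083 did not pass the test (adjusted p = 0.16).

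**Figure D4:**
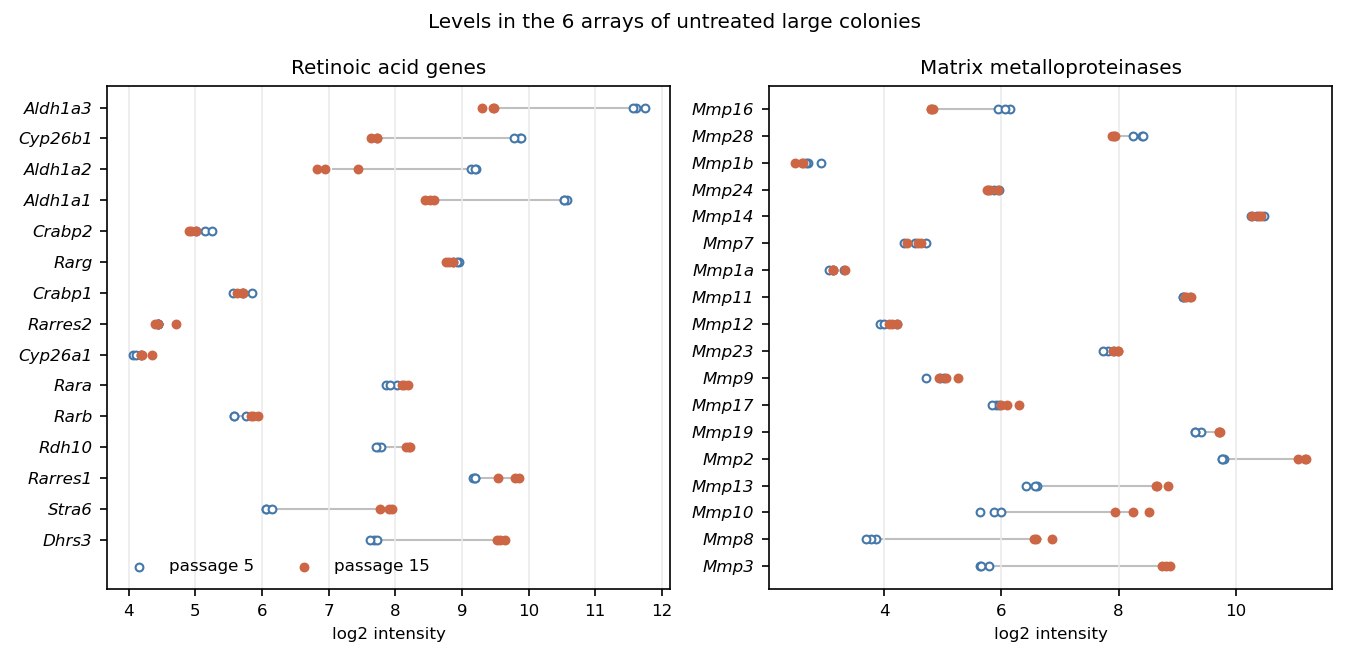
Log2 intensity (horizontal axis) in each array of untreated large colonies at passage 5 (open circles) and passage 15 (filled circles) for the 15 retinoic acid genes (left) and 18 matrix metalloproteinases (right), ordered by change; grey lines join the means. In the left panel the 3 Aldh1a genes and Cyp26b1 show the largest falls and Dhrs3 and Stra6 the largest rises; in the right panel 5 genes rise at least 2-fold and Mmp16 falls as much.

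Matrix metalloproteinases, secreted or membrane-bound enzymes that cut matrix proteins, split into a few that rose strongly and many that did not. Of 18 tested genes 7 were called higher and 3 lower, 5 of the rises and 1 of the falls at least 2-fold (median 0.12). The collagenase Mmp13 read 6.61, 6.57 and 6.43 at passage 5 and 8.63, 8.84 and 8.66 at passage 15, a 4.52-fold rise (adjusted p = 2.2e-12). The stromelysin Mmp10 read 5.64, 5.87 and 6.00 and then 8.25, 8.51 and 7.94, a 5.27-fold rise (adjusted p = 5e-11). The gelatinase Mmp2 went from 9.77 ± 0.021 to 11.15 ± 0.081 (2.60-fold). In each of these 3 the lowest passage 15 array was above the highest passage 5 array. Mmp8, the neutrophil collagenase, went from 3.78 ± 0.089, below the lower quartile, to 6.67 ± 0.17. The membrane enzyme Mmp16 fell from 6.05 ± 0.10 to 4.81 ± 0.015 (2.36-fold).

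Of the 5 large rises 4 come from 1 row of genes. In RefSeq's gene annotation 10 metalloproteinase genes lie in 1 row on chromosome 9, in the order Mmp13, Mmp12, Mmp1b, Mmp3, Mmp1a, Mmp10, Mmp8, Mmp27, Mmp20 and Mmp7. This row was looked at after the values were seen. Mmp27 was also called higher (0.47 ± 0.15, adjusted p = 0.018). Its means of 4.02 and 4.49 were both near or below the lower quartile, so no clear rise can be read from it. The genes between them had changes of 0.10 for Mmp12 (adjusted p = 0.39), 0.025 for Mmp1a (adjusted p = 0.85) and -0.20 for Mmp1b (adjusted p = 0.026), all of them below the lower quartile at both passages. No change can be read from these 3.

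The AP-1 element TGANTCA, the binding motif of FOS and JUN proteins, was sought in the same 300-base windows because it is the best known control element of this family. It was present in 8.06% of all windows and in 7 of 13 metalloproteinase windows (53.8%), on either strand, the motif reading the same on both. The holders were Mmp3, Mmp10 and Mmp13, which rose, and Mmp1a, Mmp1b, Mmp7 and Mmp12, which were not called higher. The window of Mmp8, which rose, held no match. The 100 bases before the start are printed for the 3 risers and for Mmp12, with the element in capitals, all on the plus strand of GRCm38.p6. They lie at chr9:7445722-7445821 for Mmp3, chr9:7502242-7502341 for Mmp10, chr9:7272414-7272513 for Mmp13 and chr9:7347274-7347373 for Mmp12.
Mmp3: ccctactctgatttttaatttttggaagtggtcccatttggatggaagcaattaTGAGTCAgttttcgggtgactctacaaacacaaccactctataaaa
Mmp10: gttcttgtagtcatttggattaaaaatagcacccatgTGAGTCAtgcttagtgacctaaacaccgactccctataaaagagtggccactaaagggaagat
Mmp13: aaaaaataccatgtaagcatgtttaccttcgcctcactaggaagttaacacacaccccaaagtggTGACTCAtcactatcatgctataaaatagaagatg
Mmp12: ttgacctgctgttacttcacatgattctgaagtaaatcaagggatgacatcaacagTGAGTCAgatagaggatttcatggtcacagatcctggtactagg
The element begins 46 bases before the start in Mmp3, 63 in Mmp10, 35 in Mmp13 and 44 in Mmp12.

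Immediate early genes, which answer growth signals within minutes and include the FOS and JUN family, were called higher in 10 of 24 and lower in 11 (median -0.017). Myc, a driver of growth and division, read 8.51, 8.47 and 8.29 at passage 5 and 9.53, 9.43 and 9.34 at passage 15 (2.01-fold higher, adjusted p = 4.7e-08). Fosl1, a FOS partner of JUN in AP-1, rose by 0.83 ± 0.088 and Egr2 by 0.95 ± 0.087. Nr4a1 (-0.99), Klf4 (-1.05) and the phosphatase Dusp1 (-0.59) fell. Fos was not called.

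Other proteases and their inhibitors, 17 in the list, included 6 called higher and 6 called lower (median 0.0011, and -0.048 with arrays centred on their medians). Adamts1, a protease that cuts versican, fell from 10.44 ± 0.049 to 8.74 ± 0.016 (3.25-fold), and Adamts5, which cuts aggrecan and versican, fell by 1.02. Adamts15 rose by 1.29. The inhibitor Timp1 rose by 0.80 and Reck, a membrane inhibitor of metalloproteinases, fell by 0.83.

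Genes of structural matrix moved in both directions. Among 30 collagen genes 8 were called higher and 8 lower (median 0.016, and -0.033 with arrays centred on their medians). The rises included Col6a3, a chain of beaded microfibrils, which went from 7.13, 6.97 and 6.96 to 8.93, 8.87 and 8.95 (3.73-fold, adjusted p = 7.1e-12). The fibril chain gene Col1a2 rose by 1.32 and Col6a2 by 0.90. Col14a1, a collagen that sits on fibrils, went the other way, from 10.17, 9.88 and 9.99 to 8.50, 8.50 and 8.44 (2.89-fold lower, adjusted p = 3.6e-11), and the network collagen Col8a1 fell by 1.11. Groups did not overlap in any of these 5 genes. Plod2, which hydroxylates lysine for stable crosslinks, fell by 1.12 while the crosslinking enzyme Loxl1 rose by 0.55. Basement membrane genes also moved both ways, with 8 higher and 5 lower of 20. The 5 falls were 3 without passage 5 replicate 1, and 3 with replicate number as a block in the 6 large arrays. The laminin chain Lama4 rose from 4.80 ± 0.13 to 6.89 ± 0.12, Lama2 fell by 1.39 and the netrin Ntn4 fell by 1.69.

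Genes of the latent TGF-beta binding protein family, part of the elastic fibre list, rose. The list of 15 elastic fibre genes had 7 higher and 6 lower. All 4 latent TGF-beta binding proteins were among the rises. Ltbp2 read 8.22, 7.86 and 8.11 at passage 5 and 10.68, 10.71 and 10.71 at passage 15, a 6.21-fold rise (adjusted p = 3.1e-13). Ltbp1 went from 8.78 ± 0.10 to 10.54 ± 0.085 (3.39-fold). Ltbp4 rose by 0.92 and Ltbp3 by 0.69, while fibulin 5, Fbln5, fell by 0.46. The largest change of the list was in Efemp1, which encodes fibulin 3 and went from 11.43, 11.34 and 11.31 to 7.83, 7.82 and 7.80 (adjusted p = 8.9e-16). In the TGF-beta family the coreceptor Tgfbr3 rose by 1.20 ± 0.057, and the activin antagonist follistatin, Fst, fell by 1.57 ± 0.080. The family stood at 7 higher and 7 lower of 23.

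Small leucine-rich proteoglycans were called higher in 4 of 15 and lower in 7 (median -0.041, and 0.024 with cyclic loess). Fmod, fibromodulin, which controls fibril thickness, read 6.65, 6.78 and 6.46 and then 9.12, 8.98 and 8.72 (4.95-fold higher). Ogn, osteoglycin, went from 7.89 ± 0.062 to 9.89 ± 0.12. Prelp, which links matrix to basement membranes, fell by 0.77 and Optc, opticin, changed by -0.79. Has2, the main hyaluronan synthase of heart development, read 6.37, 6.29 and 6.31 at passage 5 and 8.61, 8.62 and 8.68 at passage 15, a 4.97-fold rise (adjusted p = 3.4e-14). Hyaluronan and versican bind each other in matrix, and both genes rose in every passage 15 array. Smoc2 rose 3.77-fold and Tgfbi by 1.05, while Ccn2, a matricellular target of TGF-beta and YAP, fell by 0.81. Over the 24 matricellular genes 8 were higher and 9 lower (median -0.068).

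Integrins and mechanical genes leaned downward. Of 19 integrin genes 10 were called lower and 3 higher (median -0.30), with 1 higher without passage 5 replicate 3. Over all genes 18.7% were called lower, and 11 of the 19 were bright. Itga8, a chain of the nephronectin receptor, fell from 7.39 ± 0.14 to 5.79 ± 0.0094 (3.03-fold), and the collagen receptor chain Itga2 from 6.54 ± 0.15 to 5.36 ± 0.074. Of 22 focal adhesion genes and YAP targets 13 were lower and 3 higher (median -0.27), including Gadd45a (-1.15), the YAP kinase Lats2 (-1.06) and Ankrd1 (-0.87). All 22 were bright, so 18.7% is a low base for them. The forkhead gene Foxf2 rose by 1.55. Contractile genes showed no common direction, with 7 higher and 8 lower of 23. Cnn1, calponin, rose by 0.77, and Fhl1 (-0.82), Cald1 (-0.63) and Myh11 (-0.76) fell.

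Genes of secreted growth factors moved both ways rather than rising or falling as a whole. Of 32 genes of the FGF, HGF and related families 9 were called higher and 10 lower (median -0.014, and 0.015 with cyclic loess). Kitl, the ligand of the KIT receptor, read 5.76, 5.72 and 5.87 at passage 5 and 7.42, 7.29 and 7.26 at passage 15 (2.91-fold higher, adjusted p = 5e-12). Fgf10, a mesenchymal signal to epithelia that also acts in the developing heart, read 6.80, 6.54 and 6.66 and then 8.20, 8.08 and 8.12 (2.76-fold higher). Fgf18, a regulator of cartilage and bone, read 9.66, 9.77 and 9.61 and then 8.23, 8.18 and 8.16 (2.81-fold lower). The arrays of the passages were well apart in each. The lymphatic factor Vegfc rose by 1.13 and neuregulin, Nrg1, by 1.10, while the vascular factor Vegfa fell by 0.67 ± 0.073.

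Insulin-like growth factor genes showed 8 rises and 3 falls in 19 (median 0.10), and 5 falls with arrays centred on their medians. Igf2, the fetal growth factor, read 9.03, 9.18 and 8.93 at passage 5 and 11.12, 11.08 and 11.01 at passage 15, a 4.06-fold rise (adjusted p = 2.9e-12). Stc1, an inhibitor of the protease PAPP-A, rose 3.07-fold from 5.34 ± 0.031 to 6.96 ± 0.094. Pappa itself, which frees IGF by cutting its carriers, went from 6.94, 6.42 and 6.70 to 5.09, 4.93 and 5.16 (3.09-fold lower, adjusted p = 8.2e-10). The carrier Igfbp5 rose by 1.24 and Igfbp6 by 0.90. Inhibitor and carrier genes thus rose while the gene of the releasing protease fell. Igf2 also differed most from the treated small colonies among these, falling there (-2.24, difference 4.26 ± 0.11, adjusted p = 6.6e-14), while Igfbp5 and Stc1 fell there (changes of -1.61 and -1.05).

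**Figure D5:**
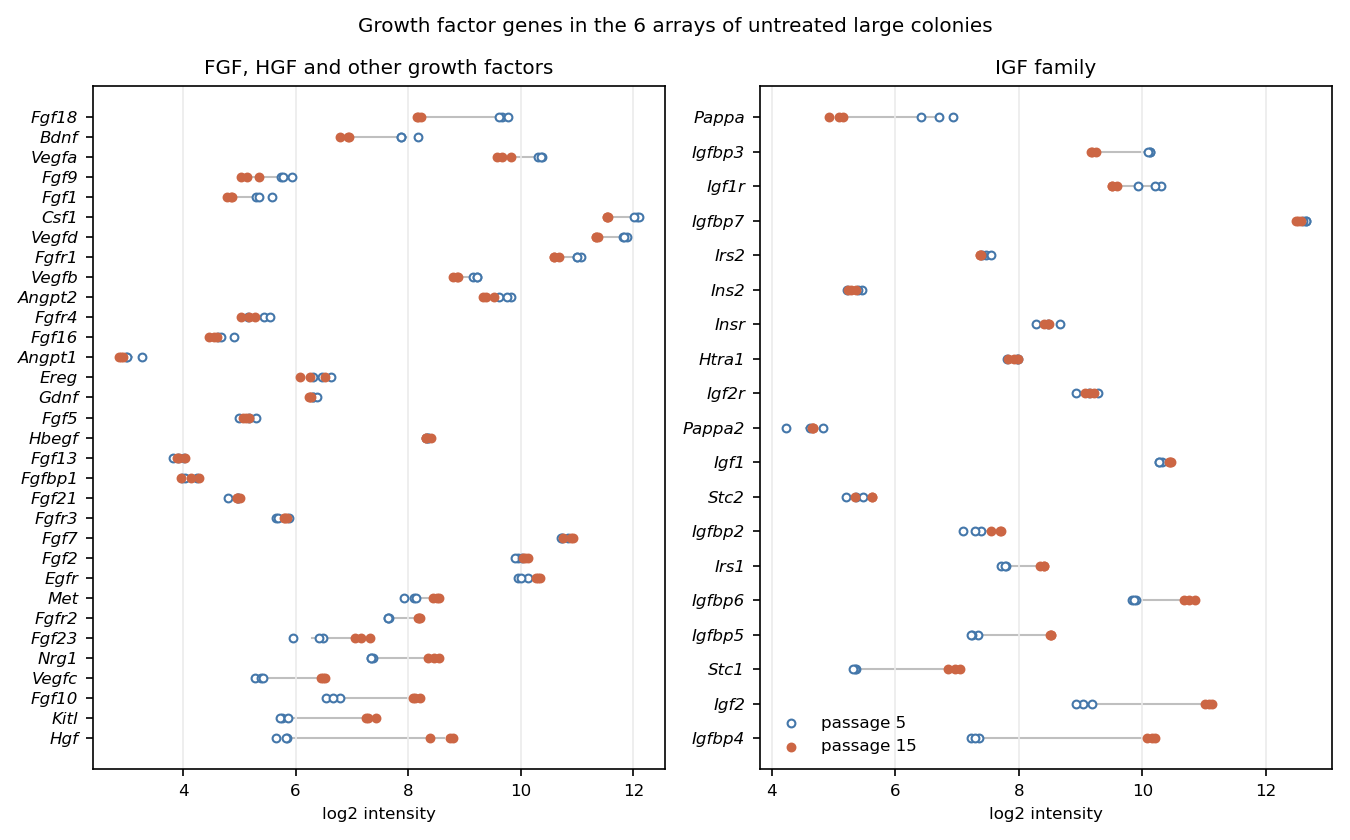
Log2 intensity (horizontal axis) in each array of untreated large colonies at passage 5 (open circles) and passage 15 (filled circles) for 32 genes of the FGF, HGF and other growth factor families (left) and 19 of the IGF family (right), ordered by change; grey lines join the means. Fgf18 and Pappa head the falls, and Hgf, Kitl, Igfbp4 and Igf2 the rises.

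Igf2 is 1 of the imprinted genes, which are expressed from 1 parental copy and often act on growth. Of 18 tested, Igf2 among them, 5 were called higher and 8 lower (median -0.21), with 3 higher without passage 5 replicate 3 or passage 15 replicate 2. At the Dlk1 and Meg3 locus, the paternally expressed Dlk1, an inhibitor of differentiation, went from 6.19, 6.51 and 6.66 to 8.01, 7.76 and 7.80, a rise of 1.40 ± 0.10. The maternally expressed long RNA Meg3 of the same locus went from 9.51, 9.60 and 9.38 to 7.93, 8.12 and 8.06, a change of -1.46 ± 0.084, and its neighbour Rian fell by 1.31. Oppositely imprinted genes of 1 locus thus moved in opposite directions, with no overlap of the arrays in Dlk1 and Meg3. Peg10 fell by 1.33 and Ndn, a growth suppressor of the MAGE family, fell by 1.22.

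Genes of developmental pathways moved in both directions. The R-spondins, which amplify Wnt signals through LGR receptors, were the largest falls of 36 Wnt genes (12 higher, 7 lower, median 0.050, and 12 lower with arrays centred on their medians). Rspo2 read 7.43, 7.42 and 7.32 at passage 5 and 5.45, 5.35 and 4.97 at passage 15 (4.39-fold lower, adjusted p = 1.2e-10). Rspo3 read 10.18, 10.12 and 10.21 and then 8.33, 8.04 and 8.28 (3.87-fold lower, adjusted p = 1.3e-09). The groups were apart in both genes. Other Wnt genes rose more modestly, with Wnt2 at 0.89, the receptor Fzd1 at 0.84 and the antagonist Sfrp1 at 0.63. In treated small colonies Rspo2 changed by -0.11 (adjusted p = 0.46; difference -2.03, adjusted p = 3.6e-08).

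In the BMP family 10 of 26 genes were lower and 5 higher, with Bmp4 at -1.26 ± 0.072 and Bmp6 at -1.12 ± 0.069. In the Notch family the ligand Jag1 fell from 10.07 ± 0.0049 to 8.39 ± 0.022 and Lfng, the fringe enzyme that tunes ligand choice, rose by 1.57. Hey2 of the same list fell from a mean of 7.19 to 4.48, near background. The list had 2 higher and 5 lower of 16, where 17.4% of all genes were called higher and 18.7% lower. Hedgehog genes were called in 5 of 12 cases, 4 of them higher, where 36.1% of all genes were called. The coreceptor Gas1 rose by 1.24, and the mediators Gli3 (1.12) and Gli2 (0.91) rose too. Guidance genes were called higher in 8 and lower in 13 of 31 (median -0.19). Class 3 semaphorins split, since Sema3d (-3.02), Sema3b (-1.44) and Sema3f (-1.05) fell beside the rise of Sema3c. The ephrin receptor Epha4 (-1.03) and the guidance ligand Slit2 (-1.04) also fell.

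Of 31 cytokine genes 12 were called higher and 7 lower (median -0.011, and 0.055 with cyclic loess), and 5 and 4 with dim genes (below the median level) left out. Il33, an alarm signal kept in the nucleus of stromal cells, read 6.33, 6.46 and 6.24 at passage 5 and 8.27, 7.99 and 7.97 at passage 15 (3.33-fold higher, adjusted p = 1.8e-09). Ccl2, the chief attractant of monocytes, went from 9.47 ± 0.18 to 10.54 ± 0.15. Il6 fell, from 9.33, 9.22 and 9.08 to 7.92, 7.75 and 7.63 (2.72-fold lower, adjusted p = 7e-10), and Ackr3, a scavenging receptor of CXCL12, fell by 1.49. Prostaglandin genes were called higher in 7 of 15 cases and lower in 1, led by the receptor Ptger4 (1.09). Of 26 interferon response genes 3 were higher and 9 lower (median -0.16), with Ifit3 (from 8.12 ± 0.14 to 6.12 ± 0.090) far ahead of Ifih1 (-0.63) and Ifi27 (-0.56).

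Lysosome genes fell broadly and by small steps. Of 45 genes 30 were called lower and 2 higher, with a median change of -0.32 against -0.042 over all genes. The share called lower over all genes, 18.7%, is a low base here too, since 43 of the 45 were bright. Only Smpdl3a fell at least 2-fold. Hexa, a subunit of hexosaminidase, read 11.06, 11.05 and 11.06 at passage 5 and 10.36, 10.18 and 10.30 at passage 15, a change of -0.78 ± 0.059 (adjusted p = 1.8e-08). Ctsd, the main aspartic protease of lysosomes, read 12.00, 12.03 and 11.99 and then 11.56, 11.48 and 11.49 (adjusted p = 3.3e-07). The arrays of each passage were tight, so that these modest falls left a clear gap. The iduronidase Idua fell by 0.83 and so did the palmitoyl thioesterase Ppt1 (-0.62). The rises were in Ctsc (0.99), which activates granule proteases, and Ctsb (0.20), the latter named after its value was seen. Treated small colonies showed 32 falls and 3 rises in this list (median -0.36). The palindrome TCACGTGA, a motif of many lysosome promoters, was in 1.53% of all windows, in 4 of 39 lysosome windows (10.3%) and in 4 of the 25 windows of members called lower.

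Genes of the antioxidant factor NRF2 and of glutathione were lower in 14 and higher in 4 of 32 (median -0.15). Hmox1, which degrades haem, fell by 0.70 ± 0.055, as did the ferritin chain Ftl1 (-0.53 ± 0.047). Gsta4, which detoxifies products of lipid peroxidation, rose by 1.03 ± 0.081. Chac1 and Slc7a11 are in this list as well as in that of the stress response.

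Growth machinery rose outside the cell cycle lists. Nearly all genes of the 3 lists given here were bright, so the 17.4% called higher over all genes is a low base. Splicing factors showed the rise most evenly, with 22 of 29 higher and 0 lower (median 0.38). Lsm2, a ring protein of U6 RNA, rose by 1.13 ± 0.087, Tra2b by 0.61 and Sf3b3 by 0.60. Of 41 cytosolic ribosomal protein genes 21 rose and 1 fell (median 0.20), with Rps12 at 0.48 and Rps3 at 0.45. Ribosome assembly genes had 20 rises and 5 falls in 40 (median 0.20), with the pseudouridine synthase Dkc1, which is also part of telomerase, at 1.17 ± 0.067 and the RNA methylase Fbl at 0.60. The 5 falls were 2 or 3 without passage 5 replicate 1 or 3 or without passage 15 replicate 1 or 3. Many ribosomal protein genes have processed copies elsewhere in the genome, and a probe set may read both.

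Energy genes moved less. Of 52 oxidative phosphorylation genes 22 were higher and 3 lower (median 0.15), none by 2-fold, with the complex I subunits Ndufb9 (0.48) and Ndufb8 (0.59) among them. All 52 were bright, so the 17.4% called higher over all genes is a low base. Glycolysis and hypoxia genes had 6 rises and 11 falls in 27 (median -0.15), where the phosphofructokinase gene Pfkp fell (-0.81) and Pfkl rose (0.63). Cholesterol synthesis was mixed (7 higher, 5 lower of 20), with Cyp51 at 0.90 and Lss at -0.54. In fat metabolism the desaturase Scd1 (1.14), the elongase Elovl6 (1.30) and the lipase Lpl (1.08) rose at least 2-fold, and no gene of that list fell as much.

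Of 34 chromatin genes 22 rose and 2 fell (median 0.43), 6 of them at least 2-fold. Cell division genes rose in the same arrays (mitosis list median 2.03), and their part in this was not tested. Dnmt1, which keeps DNA methylation through replication, read 7.18, 7.20 and 7.19 at passage 5 and 8.99, 8.87 and 8.92 at passage 15 (3.34-fold higher, adjusted p = 5.5e-13). Ezh2, the polycomb methyltransferase, went from 7.69 ± 0.11 to 9.29 ± 0.14 (3.04-fold). Both also stand in the DNA replication list. Tet1 (1.41), Hmgn2 (1.64), Lmnb1 (1.49) and Hmga2 (0.80) also rose. The falls were in Cbx7, a polycomb subunit that represses the Cdkn2a locus (-0.73 ± 0.067), and Ezh1 (-0.36), both named after their values were seen. Igf2bp1, a fetal RNA-binding protein, went from 5.11 ± 0.055 to 6.54 ± 0.024. Telomerase reverse transcriptase, Tert, and the pluripotency genes Pou5f1, Sox2 and Nanog were not called.

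Brakes on division moved both ways. Of 18 inhibitors and D cyclins 8 were higher and 7 lower (median -0.16). Cdkn2c, which encodes p18, rose by 1.05 ± 0.073 and Cdkn1b, which encodes p27, by 0.54 ± 0.058. Cdkn2b, which encodes p15, fell by 0.75 ± 0.059. Targets of p53, the factor that halts division after DNA damage, leaned one way, with 15 of 24 called lower and 2 higher (median -0.33) and none changed 2-fold. Of the 24, 22 were bright, so the 18.7% called lower over all genes is a low base. The death receptor Fas fell by 0.73, and the tetraspanin Cd82 rose by 0.66. In treated small colonies 17 of these targets were lower and 2 higher (median -0.41).

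Secreted factors linked to senescence, a list that shares members with the metalloproteinases, the IGF family and the cytokines, were called higher in 13 of 22 and lower in 3 (median 0.48). The binding protein Igfbp4 read 7.23, 7.35 and 7.29 at passage 5 and 10.16, 10.20 and 10.08 at passage 15, and Il6 was the largest fall. In treated small colonies 5 were higher and 8 lower (median -0.053), and the difference was called for 14 of the 22, with 12 higher in large colonies.

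Of 37 transcription factors of mesenchyme 16 were called higher and 9 lower (median 0.082). Over all genes 17.4% were called higher, and 30 of the 37 were bright. Foxd1, a factor of stromal progenitors in the kidney, read 5.83, 5.87 and 5.96 at passage 5 and 8.15, 7.81 and 8.17 at passage 15, a 4.45-fold rise (adjusted p = 2.7e-12). Pax3, a factor of muscle and neural crest precursors, read 5.05, 5.29 and 5.35 and then 7.14, 6.98 and 6.96 (3.47-fold higher). Foxp2 read 6.71, 6.56 and 6.65 and then 5.21, 5.22 and 5.29 (2.65-fold lower). All 3 separated the passages in every array. Twist2 rose by 1.14. Factors of heart and epicardium moved little, with 7 higher, 4 lower and 0 changed 2-fold among 27. Meis1 (0.62) rose and Mef2a (-0.66) fell, while Tbx20, Tbx5, Wt1 and Tcf21 were not called. Hox genes, which record position along the body axis, had 4 rises and 6 falls in 37, none of 2-fold, led by Hoxb9 (0.61) and Hoxa5 (-0.60). Alpl, the alkaline phosphatase of bone and stromal cells, rose by 1.98 ± 0.064, while the fat and bone regulators Pparg, Cebpa and Sp7 were not called.

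Markers of other cell types were mostly low and flat. In bulk RNA a change in the share of cells and a change in RNA per cell cannot be told apart. Of 16 endothelial markers 0 rose and 1 fell (median -0.082), 3 without passage 15 replicate 3, with Pecam1 at 4.45 ± 0.10 and 4.29 ± 0.11 (adjusted p = 0.1) and Cdh5 at 5.01 ± 0.048 and 4.90 ± 0.055. Of 14 leukocyte markers 2 rose, Cd14 (1.09) and Lyz2 (0.27), and 0 fell, with Ptprc at 3.94 ± 0.031 and 3.86 ± 0.10. The call of Lyz2 (adjusted p = 0.022) was lost with arrays centred on their medians (0.050), without passage 5 replicate 3 (0.071) and without passage 15 replicate 1 (0.10) or 2 (0.058). Of 18 cardiomyocyte markers 1 rose (Nppb, a call lost with arrays centred on their medians, with array weights and without passage 5 replicate 1 or passage 15 replicate 1 or 2) and 2 fell, Tnnt2 (-0.67) and Tnnc1 (-0.34), and Myh6 stood at 4.92 ± 0.12 and 4.96 ± 0.072.

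Mural and mesothelial markers moved more. Of 12 pericyte and smooth muscle genes 3 rose and 3 fell, and both directions were found among markers of pericytes. Rgs5, a regulator of G protein signals, went from 8.49, 8.46 and 8.32 to 6.73, 6.67 and 6.79 (adjusted p = 2.1e-12), and Mcam fell by 1.06. The potassium channel Kcnj8 went from 5.02, 5.12 and 5.11 to 6.34, 6.90 and 6.59. The mesothelial uroplakin genes fell, Upk3b from 8.51 ± 0.14 to 7.04 ± 0.12 (adjusted p = 2.3e-09) and Upk1b from 6.91, 6.94 and 6.71 to 5.10, 4.89 and 4.75 (adjusted p = 8.1e-11). Both were higher in every passage 5 array than in any passage 15 array. Msln, Wt1, Cdh1 and Epcam of the same list of 13 were not called, and Krt19 rose by 1.04. The part of such cells in the falls of other genes was not tested.

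The changes were spread over the genome with some lean by chromosome. Among genes not below the median level, the median change, with that of all of them subtracted, was highest on chromosome 10 (0.138), where 223 of 510 genes were called higher and 95 lower, and on chromosome 15 (0.105), with 162 of 410 higher and 71 lower. It was lowest on chromosome 12 (-0.121), where 57 of 338 were higher and 143 lower. In treated small colonies the same values were 0.018, -0.034 and -0.058. No test was made of these medians.

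The change of large colonies differed from that of the treated small ones in 6865 genes (34.4%) by a test of the difference itself, and 937 genes (4.70%) were called in both with opposite signs. Pgm5 rose by 4.06 in large and fell by 3.05 in small colonies, a difference of 7.11 ± 0.11 (SE, adjusted p = 1.9e-16). Hgf rose by 2.87 and fell by 1.36 (difference 4.23, adjusted p = 1.6e-11). Efemp1 fell by 3.54 and rose by 0.26 (difference -3.80, adjusted p = 4.3e-14). Not every large change differed, since Smpdl3a fell by 3.44 in large and fell by 3.38 in small colonies, with a difference of -0.059 ± 0.082 that did not pass the test (adjusted p = 0.6). Lmcd1 fell by 3.10 in large and fell by 3.81 in small colonies, and Fignl1 rose by 2.96 and 2.75 (difference 0.21, adjusted p = 0.19). Myc rose by 1.01 and 1.07, with a difference of -0.059 ± 0.12 (adjusted p = 0.73).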

How the data were processed

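RNA was labelled for 15 Affymetrix whole-transcript arrays, per the labels. The deposited values are log2 intensities made by the authors. Their processing notes list limma and RMA, without versions. Background and normalization settings were not given in the sources used here, and for arrays the number of replicates (3 a group) limits the precision.

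Of 28853 probe sets 21789 had 1 gene symbol in the platform annotation, 1621 several and 5443 none. Those with 1 symbol gave 19938 genes, by the brightest probe set over all arrays for the 999 genes with several. Symbols were updated through the GRCm38.p6 RefSeq table (21698 probe sets matched, 91 did not).

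Groups were taken from the labels. A cell-means model of all 15 arrays in 5 groups was fitted with limma 3.58.1 in R 4.3.3 (10 residual degrees of freedom, prior 5.80), with moderated 2-sided tests and Benjamini-Hochberg adjustment over 19938 genes at 0.05. The median SE of a change was 0.0778. The model was tested on simulated data for this comparison, where 24% of 100 added changes of 0.25 and 78% of 100 of 0.5 were called among 19938 genes. No other gene changed with passage there, while 36.1% were called in the data. The adjustment was thus stricter in the simulation, and these rates are not those of the real comparison.

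The members and the 67 gene lists were chosen with earlier results of these data known. The lists hold 1868 memberships, of which 1708 were tested, 76 fell on probe sets of several genes and 84 on none. Lists are described by counts and medians, with no set test. Named genes included the 15 largest rises and 15 largest falls outside the 4 cell cycle lists, among called genes whose arrays did not overlap. From each of the other lists up to 6 called genes of lowest adjusted p were named. Some of these, such as Dnmt1 and Ezh2, also stand in a cell cycle list. The rest were 8 fixed genes and, outside the cell cycle lists, 6 genes each way with the largest differences between passage changes. Predicted genes, noncoding clones, microRNAs and receptors of smell were left out of the largest changes. Not every gene chosen by this rule is given a value in the text, and Cdkn2a and Mki67 of the fixed genes are not. Cell type markers and genes given as not called stand outside that rule.

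Promoter windows were RefSeq's, and 13 motifs were searched in them on both strands. Alternatives were centring, cyclic loess, a filter on low genes, the mean over probe sets, all probe sets (added after the data were seen), the 6 arrays alone, trend and robust moderation, array weights, a replicate block and leaving out each array.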

Additional observations from a re-analysis of the deposited data

Results flagged for a closer look

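The test of the difference between the passage change of untreated large and of treated small colonies called 6865 of 19938 genes, and 269 of the 339 named genes were among them. Differences are given as the large minus the small passage change in log2 units. The differences above 0 were largest in Pgm5 (7.11), Cnn1 (4.73), Dpep1 (4.70), Mmp3 (4.69), Tcf21 (4.57) and Npy4r (4.35). Dpep1, a membrane dipeptidase, rose by 1.42 in large and fell by 3.28 in small colonies. The differences below 0 were largest in Pip (-7.87), Glipr1 (-4.50), Car6 (-3.82), Efemp1 (-3.80), Cdo1 (-3.63) and Slc7a11 (-3.54). Tcf21 and Pip were not called in large colonies (adjusted p = 0.66 and adjusted p = 0.83 in limma), so these 2 differences come from the small colonies. Cnn1, Dpep1, Glipr1 and Slc7a11 moved less in large than in small colonies, so most of their differences came from the small colonies too.

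Of the 5443 probe sets with no gene name, 826 were called between the passages of large colonies and 86 changed at least 2-fold, 56 higher and 30 lower.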

How the results depend on the processing

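The counts of called genes and of 2-fold changes stayed within 1.5 times of the reported ones under every alternative run. The 7196 calls became 6255 without dim genes (below the median level), 8079 with arrays centred on their medians and 8896 of all probe sets, and 6388 to 7114 without single arrays. Without dim genes fewer genes were tested, so the 6255 are a share above 36.1%. The 751 changes of at least 2-fold became 521 without dim genes. Leaving out single arrays gave 745 to 779 changes of at least 2-fold and 5756 to 7229 called differences between passage changes. The 6 large arrays fitted alone gave 6588 calls. With the replicate number as a block in the 6 large arrays 6968 genes were called. Arrays of the same number correlated at 0.208, 0.0984 and 0.202 after subtraction of the group means, and each of the 6 matched its own number best, which is a hint from the data and not the design. The block ended the call of Tnnc1 (adjusted p = 0.051). Centring moved the share of higher calls from 48.3% to 38.0%, and cyclic loess to 52.7%.

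Of 4830 values of named genes under the alternatives 4760 kept their direction and side of the threshold, 62 in 13 genes lost the call, 8 gained it and 0 reversed. Of 1876 list counts 92 moved by over 1.5 times. Low signal limits the folds of genes near the lower quartile, which were therefore not given.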

Other observations

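Among the genes whose passage changes differed most from those of treated small colonies, Glipr1 stood at 11.98 ± 0.026 and 11.67 ± 0.055 in large colonies at passage 5 and 15, a small fall (adjusted p = 0.0021 in limma).

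CCAAT boxes were in 50.9% of the windows of genes called at least 2-fold higher outside the cell cycle lists, in 34.4% of those called at least 2-fold lower and in 41.7% of all windows. The share was 65.7% for 2-fold rises within the cell cycle lists. These shares were not tested.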
